A study of Homo sapiens with 12 samples.

Results

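The transcriptional response of wild-type HCT116 cells to doxorubicin was taken from 4 of the 12 libraries of the series, chosen by their labels: 2 of wild-type (WT) cells kept in regular medium (control) and 2 of WT cells exposed for 48 h to doxorubicin (dox) at 1 µM. HCT116 is an established human colorectal carcinoma line. The other 8 libraries, 2 per group, came from HCT116 cells lacking SPARCLE (knockout, KO) or over-expressing it (OE), each with and without the drug, and they entered the model's estimate of the spread and the comparison of responses. SPARCLE is a long non-coding RNA. The labels do not name the clones, the deleted sequence or the over-expression construct. Cells grew in DMEM with serum, and total RNA was sequenced with a strand-specific kit. The replicate letters are a and b, and the series describes them as biological replicates.

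Doxorubicin is an anthracycline. It intercalates into DNA, traps DNA topoisomerase II on cut DNA and gives rise to double-strand breaks. It can also be reduced to a radical and evict histones from chromatin, and cells remove it through ATP-binding cassette pumps. In p53-competent epithelial cells the best known responses are induction of p53 targets and loss of mitotic transcripts. Those genes, 118 and 158 in 2 lists, were left out of the genes named by size, and the account concerns mainly other genes and families. They were kept where they also belong to another list, so some family counts include them. Among the genes described, KRT8, LIF, APOBEC3H and SERPINB5 are in the p53 list and TOP2A is in the mitosis list.

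The 4 WT libraries held 18570797 reads (control a), 12951919 reads (control b), 24893610 reads (dox a) and 25163787 reads (dox b) on the 16676 genes listed, against 12599392 to 30690664 reads over all 12. Both dox libraries were deeper than both controls, and the part of depth in the results was not tested. Expression is given as TPM, the abundance unit of the deposited values: each gene's reads divided by transcript length and scaled to a fixed total per library. Between 61.7% and 65.5% of that total came from 345 small RNA genes in the WT libraries. Intestinal epithelial markers were at high levels, and 13 of 14 were listed. Their summed level was 1180 and 1680 TPM in the controls and 3340 and 3500 TPM with dox. Much of it was the keratins KRT18 and KRT19, which are counted again in the keratin list. KRT19 was at 421 and 755 TPM in the controls and 1760 and 1850 TPM with dox. KRT18 was at 155 and 200 TPM against 629 and 653 TPM. Of 41 mucin and intestinal differentiation genes 14 were listed. Their sums were 84.8 and 93.4 TPM in the controls and 80.3 and 54.3 TPM with dox. The epithelial adhesion genes CDH1 and EPCAM did not pass the test (limma adjusted p = 0.865 and 0.748). Of 18 leukocyte markers 6 were listed, with sums of 25.6 and 15.5 TPM in the controls and 13.2 and 6.34 TPM with dox, most of it CD68. Of 14 fibroblast and muscle markers 4 were listed, with sums of 9.02 and 10.7 TPM in the controls and 22.8 and 21.1 TPM with dox, and their part in the results below was not tested. Such values are averages over all cells of a culture. Fewer cells of a type and less RNA per cell cannot be told apart in them.

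Of 15256 genes tested, 2994 (19.6%) were higher and 1920 (12.6%) were lower in WT cells with dox, at a limma adjusted p under 0.05, and the median difference over all genes was 0.17 on the log2(TPM + 1) scale. All differences below are on that scale, dox minus control, with limma's standard error (SE). With the libraries rescaled to a median gene ratio of 1, the median difference was 0.01, and 3473 (22.8%) were higher and 3463 (22.7%) lower. Differences between the 2 directions are therefore read against these shares. Counts also depended on each library: 1820 genes were called without control a, 3726 without control b, 2333 without dox a and 2327 without dox b, against 4914 with all. List counts on leaving out 1 library are given below in that order.

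The largest rises were in epithelial structural genes. Of the 15 genes named by size, 4 encode keratins and 1 a keratin-associated protein. KRT7, a simple-epithelium keratin (ENSG00000135480, chr12:52232520-52252186 on GRCh38), was at 0.932 and 3.93 TPM in the controls and 49.5 and 153 TPM with dox (4.84 ± 0.64 SE, limma adjusted p = 0.00034). KRT23 (chr17:40922696-40937634) stood at 1.66 and 4.31 TPM against 94.3 and 89.6 TPM (4.63 ± 0.42, limma adjusted p = 4.23e-05). KRT20 (chr17:40875941-40885227), a keratin of differentiated intestinal cells, had 5 reads in each control library and 785 and 781 with dox, or 0.218 and 0.322 TPM against 26.7 and 23.8 TPM (4.37 ± 0.32). For KRT20 and KRT23 both dox libraries were alike, whereas for KRT7 dox b was above dox a, as control b was above control a. In each of these genes the groups were far apart, and genes named by size were chosen among those whose groups did not overlap.

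The remaining rises named by size spanned ion transport, glycosylation, hyaluronan breakdown and aldehyde reduction. FXYD3, a regulator of the sodium pump, went from 1.05 and 0.803 TPM to 32.8 and 38.5 TPM (4.25 ± 0.25). GALNT5, which starts mucin-type O-glycans, went from 1.64 and 4.58 TPM to 56.7 and 62.2 TPM (3.98 ± 0.46). AKR1B10, a reductase of retinal and other aldehydes, went from 0.32 and 0.341 TPM to 13 and 15.5 TPM (3.51 ± 0.73). These 3 were near or below 5 TPM in both controls and above 10 TPM in both dox libraries. ITPRIPL2, TLCD1, the hyaluronidase HYAL1, SLC16A6, the neurotensin receptor NTSR1, KRT80 and HPS6, a subunit of a lysosome-related organelle complex, rose by 3.20 to 3.60. The transcription factor gene ZBED2 (1.35 and 3.06 TPM against 28.2 and 29.9 TPM) and KRTAP3-1 (0.127 and 0.66 TPM against 11.8 and 18.1 TPM, from 1 and 4 reads in the controls) completed the 15. The plot of the largest rises and falls by library shows these values.

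**Figure D1:**
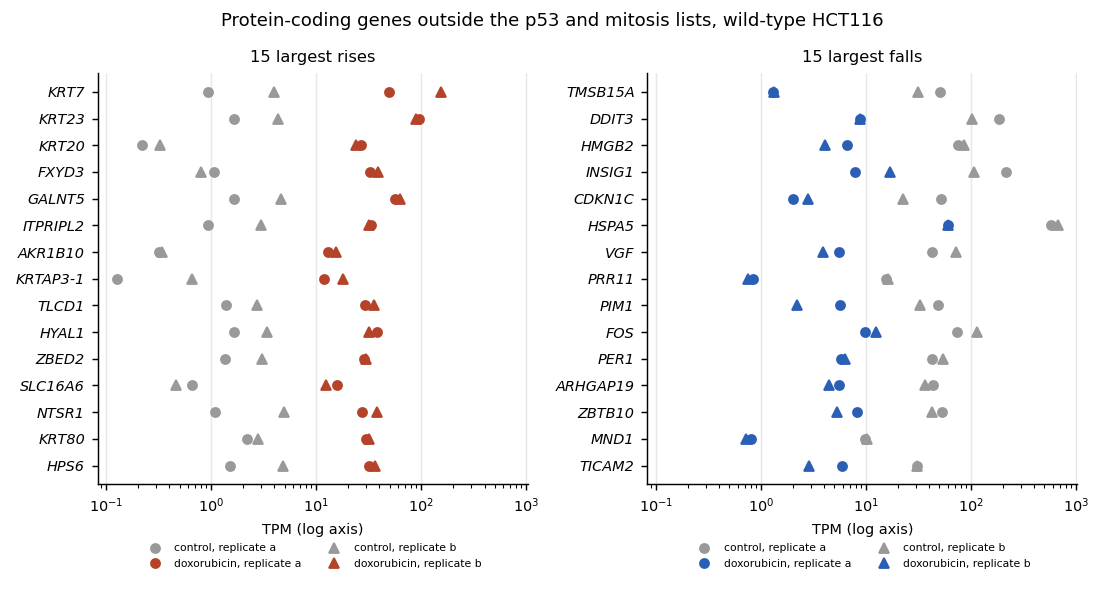
TPM of the 15 protein-coding genes with the largest rise (left) and the 15 with the largest fall (right) in WT cells, outside the p53 and mitosis lists, on a log axis; each point is 1 library, grey for control and coloured for doxorubicin, circles for replicate a and triangles for replicate b. The genes were chosen among those whose control and doxorubicin libraries do not overlap.

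By family, 10 of 15 keratin genes tested (66.7%) rose and 1 fell, with a median difference of 1.80, and 10, 10, 9 and 11 rose on leaving out 1 library. The abundant simple-epithelium keratins were among them: KRT8 was at 169 and 208 TPM in the controls and 476 and 556 TPM with dox (1.45 ± 0.19), and KRT18, its partner in filaments, at 155 and 200 TPM against 629 and 653 TPM (1.86 ± 0.28). The hair keratin KRT81 went from 0.208 and 0.668 TPM to 13.6 and 10.0 TPM (3.16 ± 0.32). KRT10, a keratin of suprabasal epidermis, was the member that fell (29.8 and 26.4 TPM against 13.6 and 9.74 TPM, -1.21 ± 0.28, limma adjusted p = 0.00648), and its call was lost without control a and without dox b, with a p of up to 0.0675. Of 28 genes of the cornified envelope and squamous barrier, 14 (50%) rose and 1 fell, with 9, 13, 11 and 12 rises on leaving out 1 library. The epithelial transcription factor EHF (4.27 and 15 TPM against 54.5 and 85.7 TPM, 2.92 ± 0.42), the zinc finger factor OVOL1 (1.96 ± 0.32) and the kallikrein proteases KLK5 and KLK6 (1.63 ± 0.27 and 1.99 ± 0.32) led that list by adjusted p.

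Calcium-binding proteins of the S100 and annexin families also rose in 10 of 20 members (50%), with 2 lower. S100A2 went from 5.85 and 4.59 TPM to 41.2 and 58.4 TPM (3.02 ± 0.43), S100A4 from 70.1 and 108 TPM to 283 and 466 TPM (2.05 ± 0.27) and S100A3 rose by 2.14 ± 0.28. S100A6, the most abundant of those named, was at 1310 and 1480 TPM in the controls and 3140 and 3340 TPM with dox (1.22 ± 0.19). Of 18 desmosome and adherens junction genes 5 rose and 1 fell (rises 1, 4, 2 and 3 on leaving out 1 library), led by the desmosomal cadherin DSC3 (1.49 and 1.87 TPM against 17.1 and 24.3 TPM, 3.0 ± 0.65). Of 21 tight junction genes 2 rose and 4 fell, and 9 were lower under median-ratio scaling and 1, 3, 2 and none on leaving out 1 library, when none, 1, none and none rose. Of 23 integrin and laminin genes only 3 passed the test: the hemidesmosome genes COL17A1 (0.527 and 0.18 TPM against 11.2 and 10.4 TPM, 3.14 ± 0.53) and ITGB4 (15 and 39.9 TPM against 72.8 and 108 TPM, 1.81 ± 0.37) rose, and ITGB1, the shared beta chain of many integrins, fell (262 and 205 TPM against 119 and 100 TPM, -1.07 ± 0.21). Under median-ratio scaling 7 members of that list were lower.

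**Figure D2:**
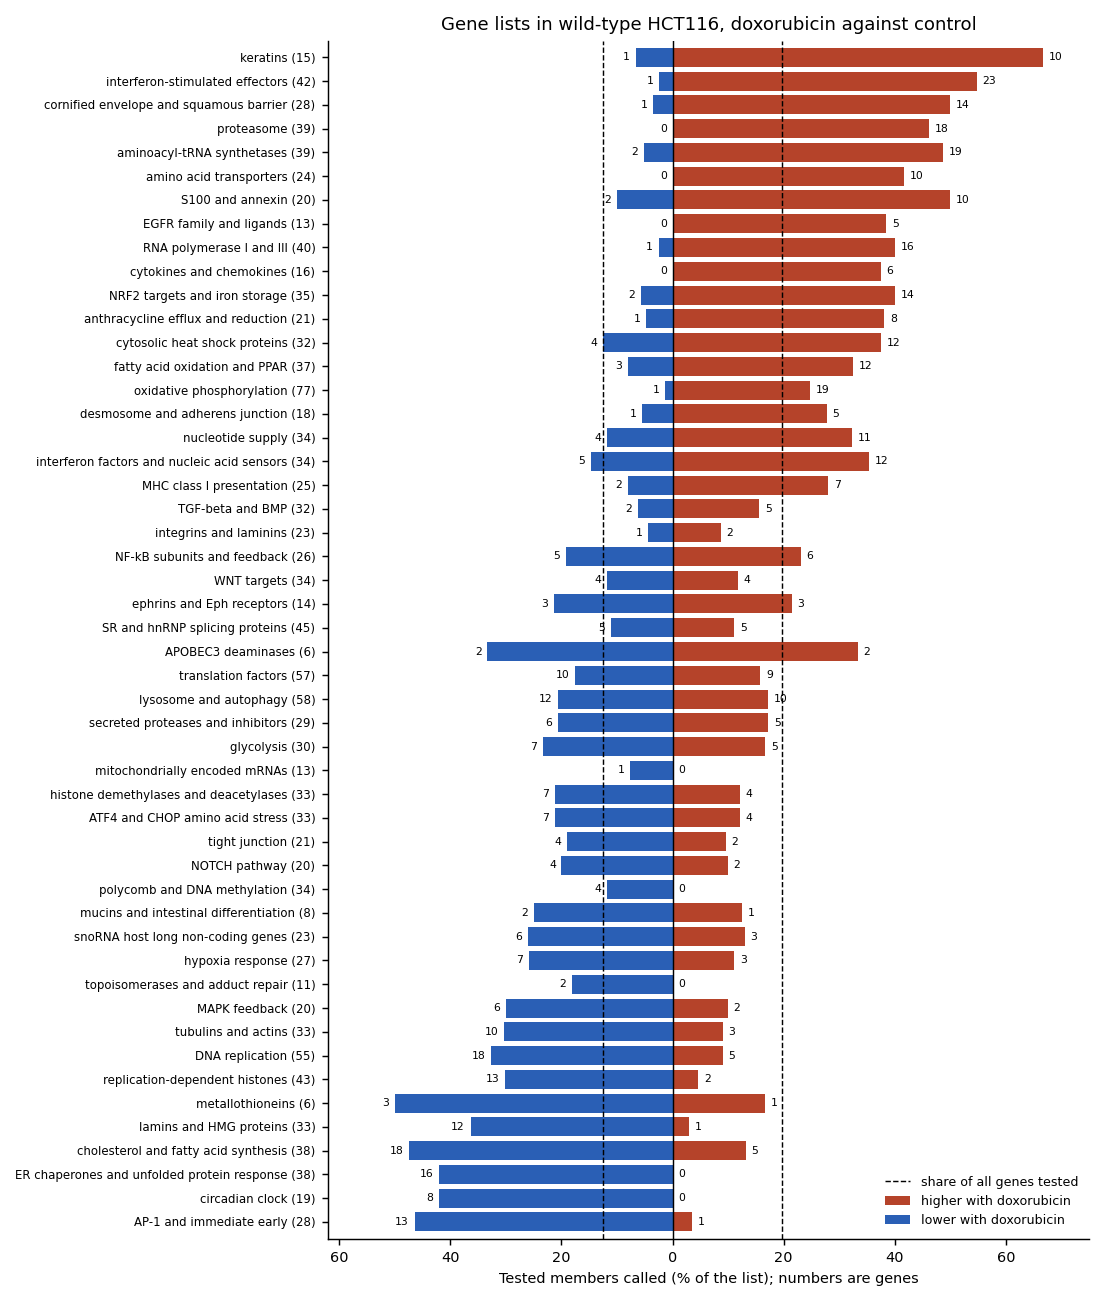
Share of the tested members of each gene list shown called higher (red, to the right) or lower (blue, to the left) in WT cells with doxorubicin, as % of the list's tested members, whose number is in brackets; numbers at the bars are genes, and dashed lines mark the shares of all genes tested, 19.6% higher and 12.6% lower. Lists are ordered by the higher minus the lower share, with keratins (66.7% higher) at the top and AP-1 and immediate early genes (46.4% lower) at the bottom.

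The largest falls joined chromatin, stress, sterol and growth-signal genes. TMSB15A, a thymosin that binds actin monomers (chrX:102513676-102516784), was at 50.2 and 31.4 TPM in the controls and 1.31 and 1.34 TPM with dox (-4.13 ± 0.37, limma adjusted p = 3.79e-05). HMGB2, a DNA-bending chromatin protein, was at 75.4 and 85.4 TPM against 6.57 and 4.06 TPM (-3.72 ± 0.35). CDKN1C, an imprinted inhibitor of cyclin-dependent kinases, was at 51.4 and 22.4 TPM against 2.0 and 2.79 TPM (-3.38 ± 0.34). In all 3 the dox libraries lay within a few TPM of each other, far below both controls. The neurosecretory gene VGF (-3.32 ± 0.43), PRR11 (-3.24 ± 0.26), the kinase gene PIM1 (-3.15 ± 0.47), ARHGAP19 (-2.78 ± 0.27), ZBTB10 (-2.67 ± 0.26), the meiotic recombination gene MND1 (-2.65 ± 0.29) and the Toll-receptor adaptor TICAM2 (-2.61 ± 0.33) also fell. DDIT3, INSIG1, HSPA5, FOS and PER1 complete the 15 and are described with their families.

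Immediate early genes, which growth factors and stress switch on within minutes, were lower. Of 28 AP-1 and immediate early genes tested 13 (46.4%) fell and 1 rose, with a median of -0.92, and 11, 11, 10 and 10 fell on leaving out 1 library. FOS, which pairs with JUN proteins to form the AP-1 factor, was at 74.0 and 113 TPM in the controls and 9.82 and 12.6 TPM with dox (-2.93 ± 0.42, limma adjusted p = 0.000574). EGR1 was at 49.1 and 33.1 TPM against 7.79 and 6.96 TPM (-2.30 ± 0.26), and the orphan nuclear receptor NR4A1 at 25.7 and 22.4 TPM against 5.12 and 4.41 TPM (-2.12 ± 0.27). The groups were apart by several times in each of them. KLF2 (-2.01 ± 0.30), JUN (-1.36 ± 0.22) and MAFF (-2.28 ± 0.34) fell too. The member that rose was MYC, at 34.4 and 108 TPM in the controls, and 279 and 327 TPM with dox (2.28 ± 0.40, limma adjusted p = 0.00167). Control b was about as far above control a as the dox libraries were above control b.

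Genes that limit MAPK signalling and follow its activity gave 6 lower and 2 higher of 20 (falls 3, 3, 4 and 2 and rises none, 1, none and none on leaving out 1 library). The phosphatase DUSP1, itself an immediate early gene, was at 52.0 and 59.8 TPM in the controls and 15.1 and 16.2 TPM with dox (-1.77 ± 0.31), and the ETS factor ETV5 at 37.6 and 33.8 TPM against 11.2 and 13.1 TPM (-1.48 ± 0.26). DUSP6, the ERK phosphatase, overlapped between the groups (47.7 and 69.3 TPM against 43.6 and 49.2 TPM). Of 13 EGFR family members and ligands 5 rose and none fell, but 1, 3, 1 and 3 rose on leaving out 1 library, and 4 rose and 2 fell under median-ratio scaling. BTC, a ligand, was called throughout (0.0877 and 0.252 TPM against 2.13 and 1.96 TPM, 1.38 ± 0.23).

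Clock genes fell in 8 of 19 members (42.1%) and rose in none, with a median of -0.63. Counts of falls were 6, 5, 5 and 4 on leaving out 1 library. The repressor PER1 was at 43.0 and 53.6 TPM in the controls and 5.80 and 6.27 TPM with dox (-2.80 ± 0.30, limma adjusted p = 0.0001). Its partners CRY1 and CRY2 fell by 1.43 ± 0.28 and 1.60 ± 0.28, and the output factor DBP by 1.77 ± 0.33. The activators were not called: CLOCK was at 10.0 and 13.9 TPM against 23.4 and 15.4 TPM (0.64 ± 0.29, limma adjusted p = 0.104), and ARNTL at 6.02 and 4.35 TPM against 3.90 and 2.22 TPM (-0.63 ± 0.32, limma adjusted p = 0.149).

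Interferon-stimulated genes, which restrict viruses and are normally switched on by interferon receptors, were higher. Of 42 antiviral effectors tested 23 (54.8%) rose and 1 fell, with a median of 0.97; 11, 22, 17 and 11 rose on leaving out 1 library. IFIT5 went from 1.97 and 5.25 TPM to 24.9 and 30.7 TPM (2.73 ± 0.38), SAMD9 from 1.30 and 3.07 TPM to 17.7 and 17.8 TPM (2.61 ± 0.30, limma adjusted p = 0.000171) and DTX3L from 0.465 and 1.72 TPM to 10.3 and 15.5 TPM (2.77 ± 0.41). Control b was above control a in these 3 genes, and both dox libraries were above both controls. IFI35 rose by 1.73 ± 0.26 and IFIT3 by 2.49 ± 0.44. GBP2, an interferon-gamma-induced GTPase, was the member that fell (2.70 and 4.65 TPM against 0.503 and 0.379 TPM, -1.67 ± 0.32). IFITM1, an inhibitor of viral entry, ranged from 2.10 to 10.2 TPM in the controls and from 3.39 to 7.09 TPM with dox, and was not called.

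The interferon-stimulated response element is the DNA site of interferon regulatory factors. Its core, searched as GAAA, any 2 bases and GAAA on both strands from 250 bases before to 50 bases after the RefSeq gene start, was found in 3.65% of 27305 promoter windows. Among the effectors, 22 of the 36 with a window held it, and among the 21 risen members with a window, 12 did. Stretches of 3 members are printed to show the element beside different responses (RefSeq, GRCh38.p14; 5′ to 3′ along the gene; capitals mark the core or its reverse complement).
IFIT3, chr10:89327821-89327970, plus strand: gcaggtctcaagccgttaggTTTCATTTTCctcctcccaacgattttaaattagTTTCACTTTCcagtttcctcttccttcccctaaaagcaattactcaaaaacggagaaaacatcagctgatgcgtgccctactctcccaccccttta
SAMD9, chr7:93117986-93118135, minus strand: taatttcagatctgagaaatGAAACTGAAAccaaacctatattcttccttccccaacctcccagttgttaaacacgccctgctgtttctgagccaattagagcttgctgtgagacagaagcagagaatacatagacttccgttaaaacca
HERC5, chr4:88456969-88457118, plus strand: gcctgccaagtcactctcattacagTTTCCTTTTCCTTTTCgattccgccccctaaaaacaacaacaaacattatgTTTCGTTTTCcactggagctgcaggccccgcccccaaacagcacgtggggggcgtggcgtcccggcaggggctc
IFIT3, with 2 cores, went from 0.0936 and 0.619 TPM to 5.12 and 8.08 TPM, and SAMD9, with 1 core, rose as above. HERC5, with 3 cores of which 2 overlap, was at 10.1 and 10.5 TPM in the controls and 10.7 and 12.2 TPM with dox (0.14 ± 0.29, limma adjusted p = 0.742). Both risen and uncalled members held the core.

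Upstream components gave 12 higher and 5 lower of 34 interferon factors and nucleic acid sensors (35.3% and 14.7%), with rises of 6, 12, 7 and 7 and falls of 0, 3, 2 and 1 on leaving out 1 library. The double-stranded RNA sensors IFIH1 (MDA5) and EIF2AK2 (PKR) rose by 1.97 ± 0.32 and 1.75 ± 0.30, and TMEM173 (STING), the adaptor for cytosolic DNA, went from 0.608 and 3.25 TPM to 9.71 and 11.8 TPM (2.16 ± 0.41). In antigen presentation through MHC class I, the peptide transporter TAP1 (6.29 and 9.68 TPM against 33.0 and 43.3 TPM, 2.14 ± 0.38) and the immunoproteasome subunit PSMB10 (3.48 and 4.94 TPM against 24.8 and 26.4 TPM, 2.37 ± 0.34) rose. Over that list 7 of 25 rose and 2 fell (rises 2, 5, 4 and 2 on leaving out 1 library), 5 fell under median-ratio scaling, and B2M, the light chain, was not called (134 and 123 TPM against 93.5 and 91.3 TPM, limma adjusted p = 0.123). Of 6 APOBEC3 cytidine deaminases 2 rose and 2 fell. APOBEC3C (8.48 and 13.5 TPM against 54.9 and 52.0 TPM, 2.22 ± 0.35) and APOBEC3H (1.83 ± 0.26) rose. APOBEC3B was lower (5.98 and 7.69 TPM against 2.39 and 1.52 TPM, -1.41 ± 0.32, limma adjusted p = 0.00668), with a p of 0.0655 without dox b. APOBEC3A was also lower (1.39 and 1.53 TPM against 0.568 and 0.341 TPM, -0.76 ± 0.23, limma adjusted p = 0.0258), and its call was lost on leaving out each of the 4 libraries in turn, with a p of up to 0.148.

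Genes of NF-kB signalling and secreted cytokines were mixed. Of 26 NF-kB subunits and feedback genes 6 rose and 5 fell (23.1% and 19.2%), with falls of 1, 2, 2 and 1 on leaving out 1 library, and 9 rose and 9 fell under median-ratio scaling. The adhesion receptor ICAM1 went from 0.883 and 1.19 TPM to 12.2 and 9.77 TPM (2.55 ± 0.34), the kinase IKBKE from 0.188 and 0.462 TPM to 4.59 and 4.25 TPM (2.04 ± 0.33) and TNFAIP2 from 2.86 and 4.53 TPM to 33.9 and 23.8 TPM (2.67 ± 0.45), while the subunit gene REL fell by 1.51 ± 0.28. Of 16 cytokines and chemokines tested 6 rose and none fell, with 3, 6, 3 and 3 rises on leaving out 1 library. LIF, a cytokine of the interleukin-6 family, went from 3.05 and 7.67 TPM to 31.3 and 29.3 TPM (2.40 ± 0.47). CXCL8, the neutrophil chemokine, was not called (7.37 and 2.91 TPM against 6.80 and 3.12 TPM), and the groups overlapped.

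In the endoplasmic reticulum, 16 of 38 chaperone and unfolded-protein-response genes (42.1%) fell and none rose, with a median of -0.54; 24 were lower under median-ratio scaling, and 8, 12, 10 and 8 fell on leaving out 1 library. HSPA5 (BiP), the main chaperone of this compartment (chr9:125234853-125241330), was at 580 and 672 TPM in the controls and 60.3 and 60.6 TPM with dox (-3.35 ± 0.44, limma adjusted p = 0.000324). HSP90B1 (GRP94) was at 852 and 680 TPM against 218 and 169 TPM (-1.98 ± 0.29), the disulfide isomerase P4HB at 395 and 432 TPM against 116 and 120 TPM (-1.80 ± 0.21) and HERPUD1, of the degradation complex, at 56.9 and 38.2 TPM against 6.89 and 7.20 TPM (-2.57 ± 0.25). In each of the 4 the groups were several times apart. XBP1, a transcription factor of the response, overlapped between the groups (25.3 and 28.9 TPM against 27.2 and 27.9 TPM, 0.03 ± 0.21), as did the lectin chaperone CANX (214 and 265 TPM against 238 and 256 TPM, 0.05 ± 0.23).

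The endoplasmic reticulum stress element, bound by NF-Y and ATF6, was searched as CCAAT, any 9 bases and CCACG on both strands of the same windows. It stood in 22 of 27305 windows (0.0806%) and in 7 of the 36 list members with a window: HSPA5, HSP90B1, CALR, CANX, CRELD2, XBP1 and ERO1B. Among the 15 fallen members with a window 2 held it. Stretches of 4 carriers are printed to set the fallen beside the uncalled (RefSeq, GRCh38.p14; capitals mark the element or its reverse complement).
HSPA5, chr9:125241344-125241493, minus strand: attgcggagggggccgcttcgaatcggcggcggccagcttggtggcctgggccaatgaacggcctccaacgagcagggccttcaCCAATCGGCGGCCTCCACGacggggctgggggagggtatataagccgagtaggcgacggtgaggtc
HSP90B1, chr12:103930196-103930345, plus strand: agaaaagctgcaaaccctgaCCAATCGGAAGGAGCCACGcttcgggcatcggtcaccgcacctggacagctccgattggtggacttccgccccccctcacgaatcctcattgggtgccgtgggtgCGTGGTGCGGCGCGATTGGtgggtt
CALR, chr19:12938364-12938513, plus strand: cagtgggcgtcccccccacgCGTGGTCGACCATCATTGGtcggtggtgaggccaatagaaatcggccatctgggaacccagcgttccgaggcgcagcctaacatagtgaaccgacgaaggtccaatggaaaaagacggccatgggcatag
XBP1, chr22:28800570-28800719, minus strand: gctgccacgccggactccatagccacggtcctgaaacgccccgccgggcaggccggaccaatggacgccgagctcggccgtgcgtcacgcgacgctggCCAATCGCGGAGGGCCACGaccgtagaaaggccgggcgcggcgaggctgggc
HSPA5 and HSP90B1 fell as above. The lectin chaperone CALR was at 284 and 306 TPM in the controls and 250 and 222 TPM with dox (-0.32 ± 0.29, limma adjusted p = 0.415), and XBP1 was level. Carriers of the same letters therefore included 2 members that fell and 5 that were not called.

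DDIT3 (CHOP), the factor that joins this response to amino acid stress, was at 187 and 102 TPM in the controls and 8.79 and 8.72 TPM with dox (-3.84 ± 0.54, limma adjusted p = 0.000471). Of 33 ATF4 and CHOP genes 7 fell and 4 rose (21.2% and 12.1%; falls 3, 4, 4 and 3 on leaving out 1 library). The asparagine synthetase ASNS (48.3 and 36.5 TPM against 13.2 and 10.7 TPM, -1.74 ± 0.22) and PHGDH, the first enzyme of serine synthesis (14.2 and 14.5 TPM against 3.3 and 2.92 TPM, -1.90 ± 0.24), fell. The last enzyme of that pathway, PSPH, rose (5.82 and 5.03 TPM against 23.1 and 21.2 TPM, 1.85 ± 0.31). ATF4 itself was not called (177 and 165 TPM against 137 and 120 TPM, limma adjusted p = 0.163).

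In the cytosol and mitochondria, 12 of 32 heat shock genes (37.5%) rose and 4 fell, with 5, 10, 3 and 7 rises and falls of none, 1, none and none on leaving out 1 library, and 6 fell under median-ratio scaling. The constitutive HSP70 gene HSPA8 was at 390 and 289 TPM in the controls and 901 and 865 TPM with dox (1.39 ± 0.20), and the HSP90 co-chaperone FKBP4 rose by 0.93 ± 0.20. HSP90AA1, the inducible HSP90, overlapped between the groups (180 and 252 TPM against 217 and 167 TPM, limma adjusted p = 0.577). Proteasome genes rose in 18 of 39 (46.2%) and fell in none, with a median of 0.57; 15 rose under median-ratio scaling and 8, 9, 5 and 12 on leaving out 1 library. The activator PSME3 was at 8.83 and 8.58 TPM against 38.6 and 31.3 TPM (1.88 ± 0.29), the catalytic subunits PSMB6 and PSMB7 rose by 0.93 ± 0.19 and 1.12 ± 0.19, and the regulatory-particle subunit PSMD1 by 1.14 ± 0.20. The plot of members of 12 lists shows the fall of the reticulum genes beside these rises.

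**Figure D3:**
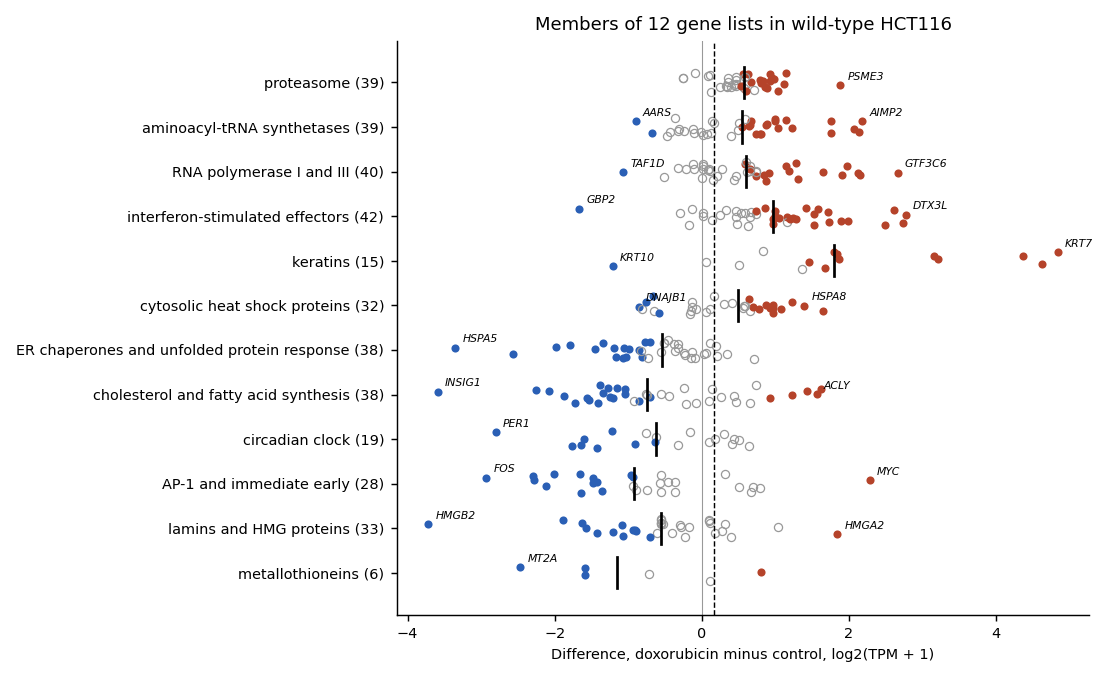
Difference in log2(TPM + 1), doxorubicin minus control, of each tested member of 12 gene lists in WT cells; filled points passed the test (red higher, blue lower), open points did not, the black bar is the list's median and the dashed line the median of all genes, 0.17. No reticulum gene is a filled red point, and no proteasome gene a filled blue one.

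Machinery for making RNA and protein rose in part. Of 40 RNA polymerase I and III genes 16 (40%) rose and 1 fell, and 7, 13, 8 and 10 rose on leaving out 1 library. POLR1A, the largest subunit of the polymerase that makes ribosomal RNA, was at 3.02 and 5.07 TPM in the controls and 18.1 and 18.6 TPM with dox (1.97 ± 0.30). The transcription factor IIIC subunit GTF3C6 was at 2.49 and 4.68 TPM against 25.1 and 29.3 TPM (2.66 ± 0.39), and the polymerase III subunits POLR3C and POLR3F rose by 2.15 ± 0.36 and 1.91 ± 0.32. Enzymes that load amino acids onto tRNA rose in 19 of 39 (48.7%) and fell in 2, with rises of 10, 12, 9 and 11 and falls of none, 1, 1 and none on leaving out 1 library. AIMP2, a scaffold of the multi-synthetase complex, was at 6.13 and 10.7 TPM against 40.4 and 40.6 TPM (2.18 ± 0.29), FARSA at 16.4 and 26.7 TPM against 68.1 and 77.9 TPM (1.75 ± 0.25) and the mitochondrial enzyme PARS2 rose by 2.07 ± 0.31. Amino acid transporters rose in 10 of 24 (41.7%) and fell in none, led by the glutamine carriers SLC38A1 (9.29 and 15.4 TPM against 53.6 and 59.9 TPM, 2.15 ± 0.30) and SLC38A5 (2.08 ± 0.31). Of the transporters 2, 9, 4 and 4 rose on leaving out 1 library, and 11 rose and 2 fell under median-ratio scaling.

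Translation factors were split, with 9 of 57 higher and 10 lower (15.8% and 17.5%), and 4, 6, 3 and 5 rose and 3, 7, 5 and 3 fell on leaving out 1 library. EIF6, needed for the large ribosomal subunit, was at 58.4 and 61.6 TPM against 190 and 184 TPM (1.63 ± 0.19), and EIF4G2 and EIF3B rose by 1.37 ± 0.21 and 1.19 ± 0.21. EIF4B, a helicase cofactor, fell from 400 and 368 TPM to 149 and 157 TPM (-1.33 ± 0.19), and the elongation factor EEF1A1 from 1810 and 1470 TPM to 751 and 796 TPM (-1.07 ± 0.22). Both fallen genes belong to the class with a terminal oligopyrimidine tract. Of 23 snoRNA host genes 6 fell and 3 rose (falls 3, 5, 5 and 3 on leaving out 1 library), with SNHG6 (253 and 201 TPM against 95.8 and 67.3 TPM, -1.48 ± 0.25), ZFAS1 (-1.09 ± 0.22) and SNHG19 (-1.21 ± 0.25) lower. Splicing proteins of the SR and hnRNP classes gave 5 higher and 5 lower of 45, with rises of 1, 2, 1 and 1 and falls of 2, 2, 1 and 2 on leaving out 1 library, and 5 rose and 14 fell under median-ratio scaling. SRSF8 (2.64 and 5.23 TPM against 32.6 and 37.3 TPM, 2.91 ± 0.33) was among those higher. HNRNPA1 (104 and 102 TPM against 51.6 and 44.6 TPM, -1.09 ± 0.22) and HNRNPD (-1.12 ± 0.28) were among those lower.

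Transcripts of the drug's own target fell. TOP2A, the proliferation-linked topoisomerase II, was at 48.4 and 54.3 TPM in the controls and 4.77 and 3.23 TPM with dox (-3.40 ± 0.35, limma adjusted p = 8.5e-05). TOP2B, the isoform of resting cells, was not called (46.2 and 51.9 TPM against 44.2 and 37.9 TPM, -0.25 ± 0.19, limma adjusted p = 0.319), nor were the adduct repair enzymes TDP1 and TDP2 (limma adjusted p = 0.916 and 0.118). The topoisomerase and adduct repair list gave 2 lower (18.2%) and none higher of 11. TOP1, its other fallen member, was at 82.9 and 108 TPM against 51.1 and 49.7 TPM (-0.90 ± 0.23, limma adjusted p = 0.0104). The call of TOP1 was not kept in every run without 1 library. Of 33 lamin, linker histone, variant histone and HMG genes 12 (36.4%) fell and 1 rose, and 10, 10, 11 and 7 fell on leaving out 1 library. LMNB1, the B-type lamin, was at 15.7 and 17.2 TPM against 5.48 and 3.92 TPM (-1.63 ± 0.27), the linker histone H1FX at 46.4 and 77.4 TPM against 14.6 and 16.4 TPM (-1.89 ± 0.26) and the variant histone H2AFZ at 220 and 161 TPM against 79.3 and 61.4 TPM (-1.42 ± 0.24). HMGA2, an architectural factor, was the member that rose (3.60 and 6.94 TPM against 23.2 and 18.3 TPM, 1.84 ± 0.33). Of 43 replication-dependent histone genes 13 fell and 2 rose (falls 11, 6, 5 and 4 and rises none, 2, none and none on leaving out 1 library), among them HIST1H4C (309 and 327 TPM against 171 and 149 TPM, -0.99 ± 0.20), HIST1H4D (-1.49 ± 0.25) and HIST1H2BO (-1.55 ± 0.25).

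Replication genes fell in 18 of 55 (32.7%) and rose in 5; falls were 14, 10, 12 and 8 and rises none, 4, none and 3 on leaving out 1 library, and falls were 31 under median-ratio scaling. The origin proteins ORC1 (7.08 and 7.73 TPM against 1.46 and 1.25 TPM, -1.84 ± 0.30) and CDC6 (12.8 and 12.2 TPM against 4.34 and 3.47 TPM, -1.47 ± 0.26), the helicase subunit MCM7 (-1.17 ± 0.23) and the single-strand binding subunit RPA3 (-1.40 ± 0.25) fell. MCM2, of the same helicase as MCM7, overlapped between the groups (7.38 and 11.2 TPM against 9.55 and 9.08 TPM, 0.03 ± 0.27). Nucleotide enzymes moved both ways, with 11 of 34 higher and 4 lower (32.4% and 11.8%; rises 4, 11, 5 and 7 on leaving out 1 library). The purine enzymes ADSL (8.40 and 11.8 TPM against 30.8 and 27.0 TPM, 1.44 ± 0.24) and ADSS (1.41 ± 0.23), the pyrimidine enzyme CTPS1 (1.29 ± 0.27) and the kinase NME1 (45.9 and 51.2 TPM against 205 and 223 TPM, 2.12 ± 0.22) rose. The ribonucleotide reductase subunits RRM1 (33.8 and 35.7 TPM against 14.6 and 14.3 TPM, -1.21 ± 0.27) and RRM2 (24.5 and 22.3 TPM against 5.53 and 4.29 TPM, -2.05 ± 0.46), which make deoxyribonucleotides, fell.

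Of 34 polycomb and DNA methylation genes 4 (11.8%) fell and none rose, though 15 were lower and 2 higher under median-ratio scaling, and 1, 1, 3 and none were lower on leaving out 1 library. Of 33 demethylases and deacetylases 7 fell and 4 rose (falls 3, 3, 5 and 3 and rises none, 4, none and 1 on leaving out 1 library), with the class II deacetylase HDAC5 at 27.1 and 26.7 TPM in the controls and 5.96 and 5.10 TPM with dox (-2.10 ± 0.23, limma adjusted p = 0.000149) and the demethylase KDM7A at 14.3 and 14.1 TPM against 6.80 and 5.24 TPM (-1.12 ± 0.23).

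Genes that carry or reduce anthracyclines rose in 8 of 21 (38.1%), and 1 fell; 2, 5, 3 and 4 rose on leaving out 1 library, and 3 fell under median-ratio scaling. The efflux pump ABCC2 (MRP2) was at 13.2 and 11.3 TPM in the controls and 139 and 102 TPM with dox (3.19 ± 0.33, limma adjusted p = 9.51e-05). ABCB1, the P-glycoprotein best known for anthracycline efflux, was the member that fell (3.50 and 2.43 TPM against 0.706 and 0.526 TPM, -1.28 ± 0.24, limma adjusted p = 0.0022). ABCG2 was not called (0.451 and 0.623 TPM against 1.48 and 0.838 TPM, limma adjusted p = 0.145). Of 35 NRF2 targets and iron storage genes 14 (40%) rose and 2 fell, with 6, 10, 4 and 9 rises on leaving out 1 library, and 12 rose and 6 fell under median-ratio scaling. ABCC2, ABCC3, AKR1B10, AKR1C1, AKR1C3 and NQO1 belong to both lists. TXN, thioredoxin, was at 201 and 177 TPM against 455 and 339 TPM (1.06 ± 0.22) and KEAP1, the sensor that restrains NRF2, at 5.84 and 7.23 TPM against 17.4 and 20.3 TPM (1.40 ± 0.26), while NQO1, a classical target, was not called (71.5 and 92.5 TPM against 131 and 109 TPM, limma adjusted p = 0.102). The light ferritin chain FTL fell from 6420 and 4830 TPM to 1770 and 1570 TPM (-1.74 ± 0.28).

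Of 6 metallothioneins, small metal-binding proteins, 3 fell and 1 rose. MT2A was at 223 and 208 TPM in the controls and 37.5 and 39.0 TPM with dox (-2.47 ± 0.21, limma adjusted p = 2.47e-05), and MT1F (-1.59 ± 0.23) and MT1X (-1.59 ± 0.32) fell too. These 3 fell in each of the 4 runs that left out 1 library. MT1E was the member that rose (40 and 51.5 TPM against 71.3 and 88.5 TPM, 0.80 ± 0.24, limma adjusted p = 0.0237), and its call was lost under median-ratio scaling (0.0918) and with voom on reads (0.1), and in 3 of the 4 runs without 1 library, up to 0.184.

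Of 38 cholesterol and fatty acid synthesis genes 18 (47.4%) fell and 5 rose, with a median of -0.75, and 14, 16, 10 and 15 fell and 1, 6, 2 and 1 rose on leaving out 1 library. INSIG1, the sterol-regulated anchor of the SREBP pathway, was at 216 and 107 TPM in the controls and 7.88 and 17.1 TPM with dox (-3.59 ± 0.38, limma adjusted p = 0.000101). MSMO1 (241 and 129 TPM against 34.4 and 37.6 TPM, -2.26 ± 0.43) and HMGCS1 (81.9 and 49.2 TPM against 14.4 and 19.0 TPM, -1.88 ± 0.30), both of the sterol path, fell, as did the elongase ELOVL5 (-1.73 ± 0.22) and ACSS2 (-1.56 ± 0.22). Control a was about double control b in INSIG1 and MSMO1, and both controls were above both dox libraries. ACLY, which supplies acetyl-CoA from citrate, rose (49.4 and 54.7 TPM against 150 and 160 TPM, 1.56 ± 0.23), and FASN overlapped between the groups (47.3 and 96.8 TPM against 60.1 and 138 TPM). Fatty acid oxidation and PPAR genes rose in 12 of 37 (32.4%) and fell in 3, with ECHS1 (23.8 and 21.8 TPM against 49.8 and 52.4 TPM, 1.13 ± 0.21) and ACAD9 (1.30 ± 0.27) among those higher; 5, 9, 4 and 10 rose and none, 1, 3 and none fell on leaving out 1 library, and 6 fell under median-ratio scaling.

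The glucose transporter SLC2A1 was at 25.5 and 33.8 TPM in the controls and 175 and 156 TPM with dox (2.45 ± 0.21, limma adjusted p = 2.93e-05), and the lactate carrier SLC16A1 rose by 1.26 ± 0.19. ALDOC (163 and 178 TPM against 36.4 and 44.9 TPM, -2.05 ± 0.32) and GAPDH (5410 and 6070 TPM against 2180 and 1980 TPM, -1.46 ± 0.27) fell. Over the glycolysis list 5 of 30 rose and 7 fell, with a median of 0.21, and 2, 4, 2 and 3 rose and 7, 5, 4 and 6 fell on leaving out 1 library. LDHA overlapped between the groups (121 and 192 TPM against 165 and 154 TPM). Hypoxia genes fell in 7 of 27 and rose in 3, led by NDRG1 (152 and 140 TPM against 49.2 and 35.2 TPM, -1.78 ± 0.33), but 4, 1, 2 and 3 fell on leaving out 1 library.

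Nuclear genes of oxidative phosphorylation rose in 19 of 77 (24.7%) and fell in 1 (1.30%), the first share being near that of all genes and the second below it. Under median-ratio scaling 14 rose and 5 fell, and 10, 12, 5 and 12 rose on leaving out 1 library. The ATP synthase subunits ATP5MC1 (18.6 and 23.1 TPM against 65.3 and 53.2 TPM, 1.47 ± 0.21) and ATP5MF (1.40 ± 0.24) and the complex I subunits NDUFB9 and NDUFB10 (1.08 ± 0.21 and 1.09 ± 0.19) rose. Of the 13 mRNAs of the mitochondrial genome 1 passed the test, MT-ND4 (631 and 920 TPM against 337 and 194 TPM, -1.57 ± 0.39, limma adjusted p = 0.00944), and its call was lost without control b (0.0623) and without dox b (0.0998). Lysosome and autophagy genes gave 10 higher and 12 lower of 58 (17.2% and 20.7%), and 4, 7, 4 and 4 rose and 3, 6, 7 and 4 fell on leaving out 1 library. The cholesterol exporters NPC1 (-1.10 ± 0.23) and NPC2 (78.2 and 66.6 TPM against 24.0 and 30.6 TPM, -1.38 ± 0.22) and the protease CTSK (-1.54 ± 0.29) fell.

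Cytoskeletal genes fell in 10 of 33 and rose in 3 (30.3% and 9.09%; falls 5, 9, 9 and 3 on leaving out 1 library). TMSB4X, the abundant thymosin, was at 245 and 203 TPM in the controls and 92.5 and 72.0 TPM with dox (-1.44 ± 0.25). Smooth muscle actin ACTA2 rose from 2.22 and 3.15 TPM to 14 and 14.8 TPM (2.07 ± 0.33) and the beta-tubulin TUBB6 by 1.14 ± 0.22. Other signalling lists stayed near the shares of all genes or had few calls: 4 higher and 4 lower of 34 WNT genes, 2 and 4 of 20 NOTCH genes, 5 and 2 of 32 TGF-beta and BMP genes, 3 and 3 of 14 ephrin genes, 5 and 6 of 29 secreted proteases and inhibitors, and 1 and 2 of 8 mucin and intestinal differentiation genes. Leaving out 1 library moved each of these counts by more than 1.5 times in at least 1 case. Single members moved: FZD6, a WNT receptor (10.3 and 12.6 TPM against 36.1 and 38.1 TPM, 1.62 ± 0.31), EFNA4 (1.88 ± 0.34) and the serpin SERPINB5 (19.5 and 16.1 TPM against 107 and 102 TPM, 2.49 ± 0.38) rose. RBPJ, the DNA-binding factor of NOTCH signalling, fell (34.3 and 37.5 TPM against 14.3 and 13.8 TPM, -1.29 ± 0.22), as did HES4 (-2.0 ± 0.38). The WNT genes TCF7L2 (-1.19 ± 0.29), FZD4 (-1.09 ± 0.31) and TCF7L1 (-0.88 ± 0.24) fell too. In the intestinal differentiation list KLF4 (-1.35 ± 0.28) and SPDEF (-0.99 ± 0.23) fell and CDX2 rose (1.13 ± 0.33). The calls of TCF7L2, FZD4, TCF7L1, KLF4, SPDEF and CDX2 were each lost in at least 1 run without 1 library.

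The share of genes called depended on gene length along the genome. Among 12311 protein-coding genes outside the p53 and mitosis lists, 26.5% of those spanning up to 5 kb and 27.5% of those of 5 to 10 kb were higher with dox. The share fell step by step to 24.1%, 22.1%, 17.9% and 12.7% and was 9.11% above 200 kb, where the median difference was -0.04 against 0.27 up to 5 kb. The share of lower genes ranged from 9.93% to 14.5% and was highest at 100 to 200 kb. With median-ratio scaling, the higher share ran from 28.1% to 12.4% and the lower share from 18.9% to 29.8%. KO cells (13.8% to 4.19% higher) and OE cells (17.1% to 6.03% higher) gave the same order of their end bins. Longer genes also had longer transcripts (median 2069 bases up to 5 kb and 8672 bases above 200 kb) and lower mean TPM (medians 12.1 and 4.95), and their part in the result was not tested. Among other gene types, 49 of 171 sense-intronic transcripts, 16 of 44 snRNAs and 86 of 346 processed pseudogenes were lower, against 7, 1 and 27 higher. Antisense transcripts (95 higher and 44 lower of 489), lincRNAs (106 and 76 of 507) and processed transcripts (33 and 20 of 192) had more rises than falls. All genes tested gave 2994 higher and 1920 lower of 15256. The strand setting of the counting was not given in the sources used here, so reads of overlapping genes may be shared between them.

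**Figure D4:**
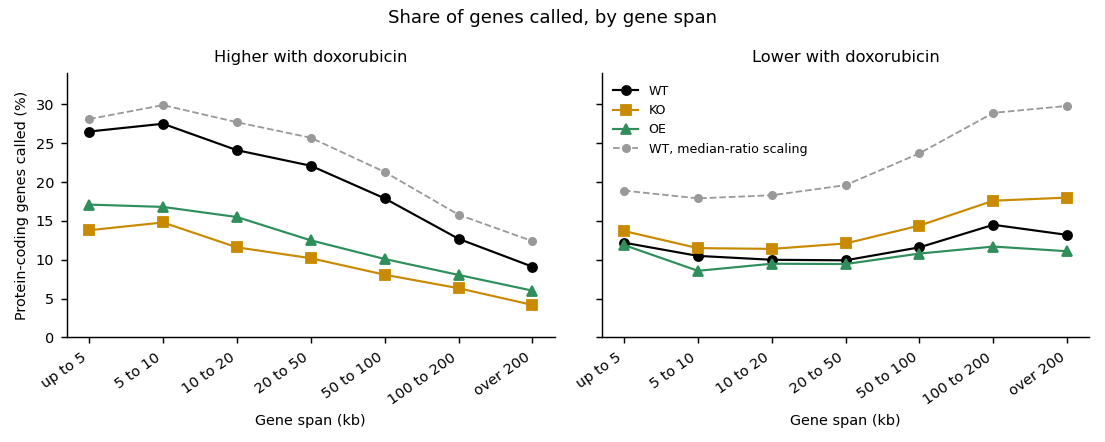
Share of protein-coding genes outside the p53 and mitosis lists called higher (left) or lower (right) with doxorubicin, in %, by gene span in kb, for WT (black), KO (orange) and OE (green) cells and for WT cells under median-ratio scaling (grey, dashed). In WT cells the higher share runs from 26.5% up to 5 kb to 9.11% over 200 kb.

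Whether the WT response differed from that of the manipulated lines was tested as the WT response minus the mean of the KO and OE responses, each line against its own controls. In KO cells 1510 genes (9.9%) were higher and 2185 (14.3%) lower with dox, and in OE cells 1895 (12.4%) and 1615 (10.6%). Of the 2994 genes higher in WT cells, 1395 (46.6%) were called higher in KO cells, where they made up 92.4% of the higher calls, and 1653 (55.2%) in OE cells, 87.2% of the calls there. Of the 1920 lower genes, 1602 (83.4%) were called lower in KO and 1325 (69.0%) in OE cells, 73.3% and 82.0% of those lines' calls. None was called in the opposite direction in either line. The 15 largest falls were called in both lines, and 13 of the 15 largest rises were.

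The test of the difference called 1 gene (0.00655% of those tested). An unadjusted p under 0.05 was found for 258 of the 15256 genes, fewer than the share of 0.05 reached without any difference. PDE4B, a phosphodiesterase that breaks down cyclic AMP (ENSG00000184588, chr1:65792514-66374579), was at 1.40 and 1.91 TPM in WT controls and 23.0 and 22.1 TPM with dox (3.15 ± 0.21, limma adjusted p = 8.23e-06). Over all 12 libraries PDE4B averaged below 5 TPM, so its mean level in KO and OE cells was far below that of WT cells with dox. At low levels the added 1 TPM narrows both differences and spread. The PDE4B difference was 0.03 ± 0.21 in KO cells (limma adjusted p = 0.938) and 0.05 ± 0.21 in OE cells (limma adjusted p = 0.874). The WT response thus exceeded their mean (the PDE4B interaction) by 3.12 ± 0.25 (limma adjusted p = 0.000227). That call was lost with pseudocount 0.1 (limma adjusted p = 0.483) and with voom on reads (0.577), while it held on leaving out each of the 12 libraries in turn, with 2 genes called in all without WT control a or KO dox b and 4 without KO dox a. The 2 large rises not called in the other lines did not pass this test: ZBED2 differed by 0.89 in KO (limma adjusted p = 0.0758) and 0.50 in OE cells (0.306), and KRTAP3-1 by 1.08 (0.121) and 0.93 (0.18). Keratin KRT81 differed by 0.70 in KO cells (limma adjusted p = 0.126) and 0.45 in OE cells (0.319), against 3.16 in WT cells, and its difference between lines had an adjusted p of 0.131. By list, keratins gave 8 rises in KO and 7 in OE cells, interferon effectors 28 and 29, proteasome genes 8 and 10, and reticulum genes 11 falls in each line. These counts are set beside each other without a test of their difference.

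**Figure D5:**
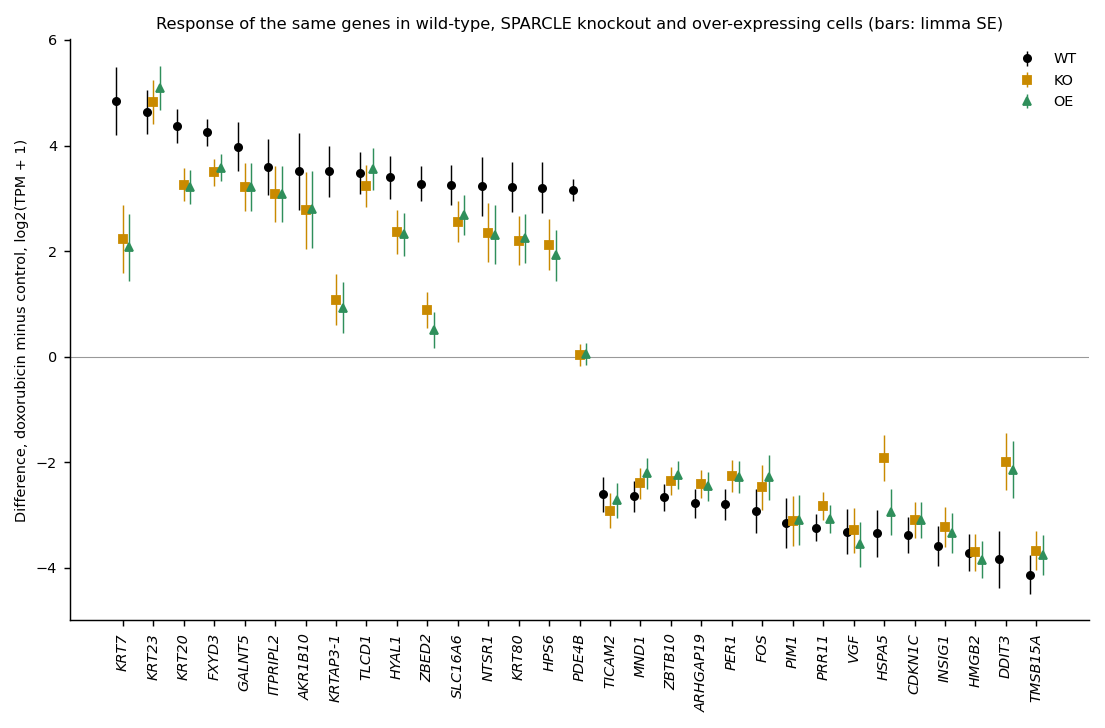
Difference in log2(TPM + 1), doxorubicin minus control, with limma's SE, of the 30 genes named by size and PDE4B in WT (black circles), KO (orange squares) and OE (green triangles) cells, ordered by the WT value. PDE4B stands at 3.15 in WT cells and at 0.03 and 0.05 in KO and OE cells.

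The p-values measure the spread between 2 libraries a group, which may be partly technical. Reads of near-identical copies can be split between them by the counting, so values of the histone, APOBEC3, metallothionein and thymosin genes, KRT81, NME1, ARHGAP19 and genes with many processed pseudogenes such as GAPDH, FTL, EEF1A1 and HNRNPA1 are uncertain.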

How the data were processed

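Values deposited by the authors are log2 TPM per gene, per the file headers, for 12 libraries. The build hg38 and, among tools, featureCounts, SAMtools 1.7, edgeR 3.12.1 under R 3.3.3, and the aligner HISAT2 2.0.4 are listed per the submitters' processing notes. The order of steps, annotation and strand setting were not given in the sources used here. Symbols and coordinates came from GENCODE 29, which held 16564 of the 16676 identifiers. With its exon lengths the values of 15182 genes (91.7%) were whole reads plus a small prior, within 0.05 reads (5 genes with shuffled lengths). A further 1494 were recovered with a searched length. The recovered reads served for depth and the voom alternative, and their number limits precision by counting error only.

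The log2 values were turned back to TPM and analysed as log2(TPM + 1). Genes below 1 TPM in all but 1 library, or in all, were dropped, and limma 3.58.1 (R 4.3.3; eBayes with trend, 6 group means, 6 residual degrees of freedom) was fitted to all 12 libraries. The threshold for a call was 0.05, after Benjamini-Hochberg adjustment over the genes of each comparison. On simulated libraries of 15256 genes, the WT comparison recovered 53 of 100 genes changed by 1 log2 unit and 99 of 100 changed by 2, with 10 false calls. The simulation gave all genes the same dispersion (relative spread between replicates) and changed only those genes, equally in both directions. The real libraries had many more changes, so these rates may not carry over to them. Alternatives were other pseudocounts, filters, scalings and fits, and leaving out each library.

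Genes named are the 15 largest rises and falls among called protein-coding genes with a mean of at least 5 TPM, no overlap between groups and no place in the p53 or mitosis lists; up to 4 called members per list by adjusted p; and genes called in the interaction. All other genes in the text (such as KRT10, MYC, GBP2, IFIT3, HERC5, XBP1, CALR, RRM2, HMGA2, JUN, MAFF, RRM1, EEF1A1, HMGCS1, MSMO1 and those given as not called) were chosen after their values were seen. The members and the 51 gene lists were chosen with earlier results of these data known. A few genes and 1 list are not reported here.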

Additional observations from a re-analysis of the deposited data

Results flagged for a closer look

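PDE4B was flagged because its response differed between cell lines by the test of the difference itself: the WT response exceeded the mean of the KO and OE responses by 3.12 on the log2(TPM + 1) scale (limma adjusted p = 0.000227). It was higher with doxorubicin in 2 of 2 WT libraries, by 3.15, and was not called in either manipulated line. Its levels in those lines were low, with a mean below 5 TPM over all 12 libraries. With pseudocount 0.1 the limma adjusted p was 0.483 and with voom on reads 0.577, and PDE4B interaction values ranged from 2.98 to 3.26 on leaving out 1 library.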

How the results depend on the processing

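The count of genes called in WT cells, 4914, was 3165 when a difference of at least 1 log2 unit was also required, and ranged from 1820 (without control a) to 3726 (without control b) on leaving out 1 WT library. It stayed within 1.5 times under pseudocount 0.1 (5120), no filter (5038), a mean TPM of at least 5 (3289), median-ratio scaling (6936), no small RNAs (6377), only the 4 WT libraries (6708) and voom on reads (6935). The differences of replicates a and b correlated between -0.39 (WT control and KO control) and 0.81 (KO dox and OE dox) across groups. They correlated at 0.5 between KO control and OE control and at 0.25 between WT control and WT dox. The letters were not taken as pairs, and with the replicate block 6069 genes were called. The main model treats KO and OE libraries as independent, so the SE of the interaction does not reflect such sharing. With the replicate block the interaction called 1 gene. In the interaction, 0 genes were called with pseudocount 0.1, with a mean TPM of at least 5 (where PDE4B was not tested) and with voom on reads, and 1 to 4 on leaving out 1 library; it could not be fitted on the 4 WT libraries alone. Of 220 genes named for the WT comparison, 159 kept their call under every alternative that tested them and none reversed (some, such as KRTAP3-1 and KRT81, had a mean TPM below 5 and were not tested in that one); 43 lost it without control a, 23 without control b, 32 without dox a and 39 without dox b. With 2 libraries a group, differences near 1 log2 unit were often missed in simulation, which used the same dispersion for all genes.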
